A study of Mus musculus with 11 samples.

Results

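Calprotectin and the genes that call neutrophils into a barrier tissue were followed in the gingival epithelium of individual mice. The 6 genes are S100a8 and S100a9, which encode the subunits of calprotectin, the chemokines Cxcl1 and Cxcl2, their receptor Cxcr2, and Lcn2, which encodes lipocalin 2. They were taken from the deposited table by gene name and are 6 of the 55414 genes listed and of the 19170 genes with a value. All 6 had values and were well measured, here meaning a mean of 10 or more normalized counts, where a normalized count is the number of reads of a gene divided by a factor that evens out the depth of the libraries. The genes had been selected on their measured values in these mice, namely the level in each mouse, the spread among the control mice and the difference between the groups. These quantities are therefore given as a description and carry no test.

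RNA was sequenced from the gingival epithelium of 11 Langerin-DTR mice. In these mice the promoter of langerin, a lectin of Langerhans cells (LCs), drives the receptor for diphtheria toxin (DT), so that DT kills every cell that expresses langerin. All mice of both groups carried the transgene. 5 mice were injected with PBS and 6 with DT, repeatedly during the weaning period, and the tissue was taken from adult male mice, after LCs had had time to return. No group without the transgene that received DT was analysed here, so an effect of DT itself and an effect of losing langerin-expressing cells cannot be told apart.

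Calprotectin is a heterodimer that binds zinc and manganese and so withholds them from microbes. It makes up much of the cytosol of neutrophils, and keratinocytes of wounded or inflamed epithelium also make it. CXCL1 and CXCL2 are small secreted proteins that bind CXCR2 on neutrophils and direct them from the blood into tissue, and LCN2 binds bacterial iron carriers. In the gingiva, neutrophils pass through the epithelium next to the tooth throughout life, and IL-17, IL-1 and TNF acting through NF-kB are known inducers of these genes in epithelial cells.

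The libraries held between 17509328 and 24325513 reads per mouse. Keratinocyte genes led the libraries, with Krt13 between 819001 and 978114 normalized counts, and the 7 markers of LCs were measured in both groups, at a summed level of 2347 to 5524 in PBS mice and 1780 to 3425 in DT mice. Most genes that define neutrophils had few or no reads. Of 15 neutrophil markers, 11 were listed without a value, meaning fewer than 10 reads over all mice, among them Ly6g, Mpo, Elane, Camp, Retnlg and Cd177. Of the other 4, Csf3r, the receptor for the neutrophil growth factor, lay between 0.875 and 9.44 normalized counts and Ngp, a granule gene, between 0 and 3.44. The summed level of the 4 measured markers was 897 to 2265 in PBS mice and 288 to 2016 in DT mice. Most of it came from Ltf, which encodes lactoferrin, also a secretion of epithelia and glands. In PBS 3, the mouse with the highest sum, Ltf stood at 1685 and Chil3, a gene of myeloid cells, at 574. In RNA from many cells together, fewer cells of a type and less RNA per cell cannot be told apart. The study describes its material as epithelial cells collected from the gingiva. These marker levels therefore need not be those of the whole gingiva.

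3 mice stood apart. PBS 3 and PBS 5 lay at 17.2 and 20.9 on the first principal component of the 500 most variable genes, which held 36.0% of the variance, while the other PBS mice lay between -13.0 and -11.9 and the DT mice between -9.09 and 10.5. For 5 of the 6 genes that component is not independent, since all but Cxcr2 were among the 500. DT 3 is named only because it had the lowest level of most of the 6 genes in its group, values on which they were selected. On the component DT 3 lay at -9.09, with DT 2 next at -3.96. DT 5 lay farther from its group, at 10.5, with DT 4 next at 1.80. No label marks these mice as a batch. The group differences of the genes and the medians of the lists are therefore given with and without PBS 3 and PBS 5.

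S100a8 and S100a9 had the highest levels of the 6 genes. S100a8 stood at 302, 325, 983, 222 and 1297 normalized counts in PBS mice 1 to 5, and at 946, 743, 258, 835, 1691 and 648 in DT mice 1 to 6. S100a9 stood at 419, 486, 992, 405 and 1995 in the PBS mice, and at 1625, 1034, 351, 1133, 1983 and 1105 in the DT mice. For both genes, PBS 1, PBS 2, PBS 4 and DT 3 formed a low set, and PBS 3, PBS 5 and the other DT mice lay above it, so that the groups overlapped over nearly their whole range. The mean of S100a8 was 626 ± 484 (SD, n = 5) in PBS mice and 853 ± 473 (SD, n = 6) in DT mice, and that of S100a9 was 859 ± 679 and 1205 ± 558. On the scale of log2(normalized count + 1), DT minus PBS was 0.60 (SE 0.46) for S100a8 and 0.61 (SE 0.43) for S100a9. The highest mouse exceeded the lowest by 7.61-fold for S100a8 and by 5.69-fold for S100a9.

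**Figure D1:**
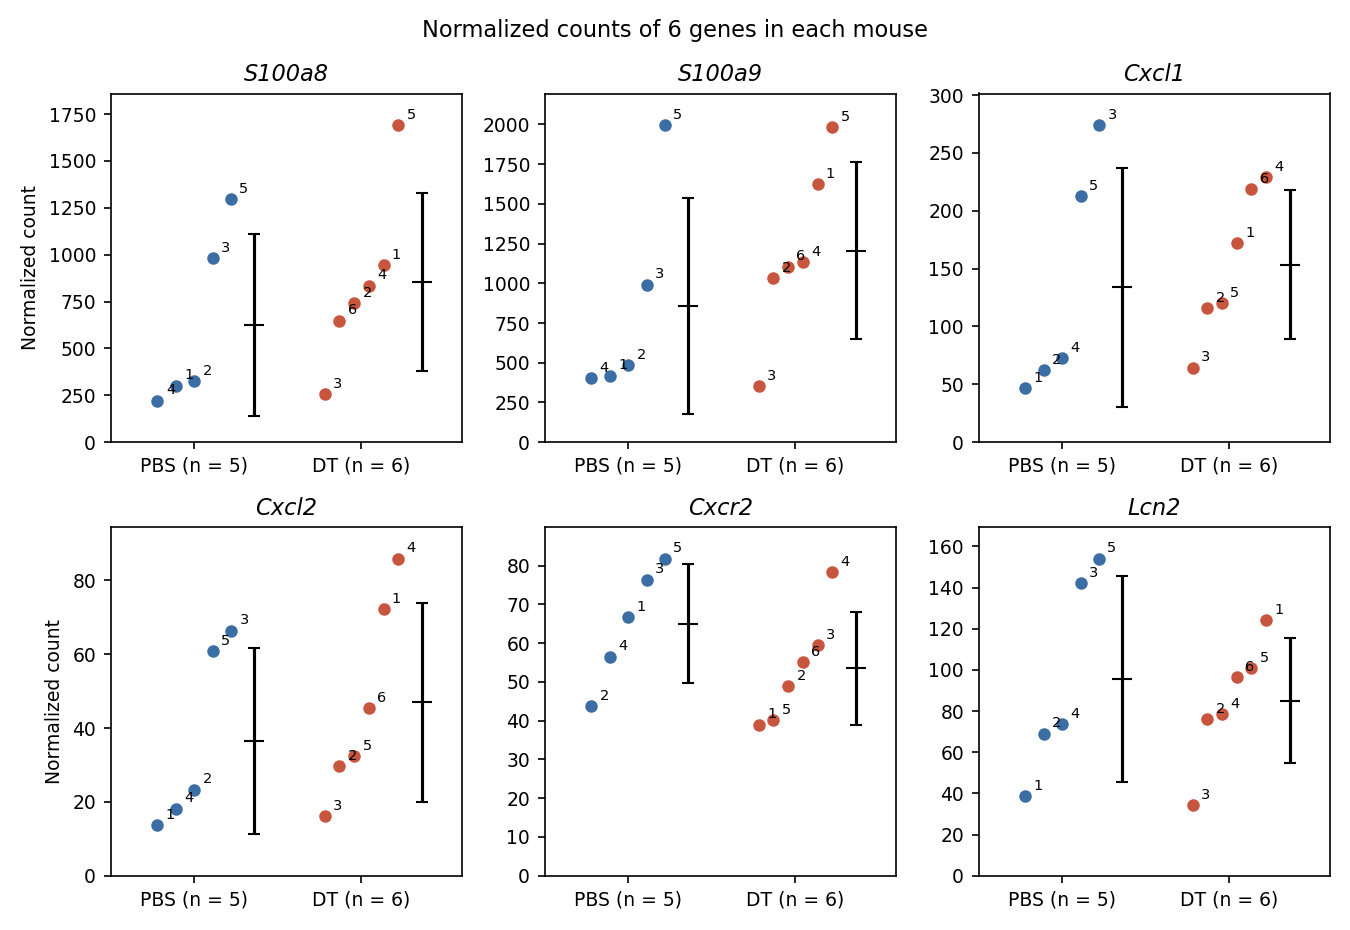
Normalized counts (y axis, from 0) of the 6 genes in each PBS mouse (blue) and DT mouse (red), with the mouse number beside each point and the mean ± SD of the group in black. PBS 3 and PBS 5 were the 2 highest PBS mice in all 6 panels, and the groups overlapped in each.

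The chemokines followed the same division of the PBS mice. Cxcl1 stood at 46.4, 62.2, 274, 72.9 and 213 normalized counts in PBS mice 1 to 5, and at 172, 116, 64.5, 229, 120 and 219 in DT mice 1 to 6. Cxcl2 stood at 13.6, 23.3, 66.4, 18.2 and 60.9 in the PBS mice, and at 72.2, 29.6, 16.1, 85.9, 32.4 and 45.5 in the DT mice. PBS 3 had the highest level of Cxcl1 in any mouse, DT 4 had the highest level of Cxcl2, and PBS 1 was the lowest for both genes. The means of Cxcl1 were 134 ± 103 (SD, n = 5) in PBS mice and 153 ± 64.4 (SD, n = 6) in DT mice, and those of Cxcl2 were 36.5 ± 25.1 and 46.9 ± 26.9. The difference of DT minus PBS on the log2 scale was 0.43 for both genes, with an SE of 0.42 for Cxcl1 and 0.45 for Cxcl2.

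Cxcl1 and Cxcl2 are neighbours on chromosome 5, and their promoters share a stretch of sequence. The 150 bases before the annotated start of each gene are shown because both genes were high and low in the same mice, and that of S100a9 because it holds the first letters of the shared stretch. RefSeq held such a window for 6 of the 6 genes, and the sequences are those of its build GRCm38.p6, read 5′ to 3′ on the strand of the gene. Capitals mark the 2 runs of at least 10 bases that Cxcl1 and Cxcl2 have in common and, in S100a9, a match to GGGAATTTC, which are letters of the kind that NF-kB binds.
Cxcl1, chr5:90891095-90891244, plus strand: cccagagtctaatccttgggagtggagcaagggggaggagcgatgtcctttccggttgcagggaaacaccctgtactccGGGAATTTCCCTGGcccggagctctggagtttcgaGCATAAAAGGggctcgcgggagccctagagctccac
Cxcl2, chr5:90903749-90903898, plus strand: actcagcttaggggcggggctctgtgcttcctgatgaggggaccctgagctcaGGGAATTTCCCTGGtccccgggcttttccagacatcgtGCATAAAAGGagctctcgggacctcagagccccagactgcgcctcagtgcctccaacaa
S100a9, chr3:90695722-90695871, minus strand: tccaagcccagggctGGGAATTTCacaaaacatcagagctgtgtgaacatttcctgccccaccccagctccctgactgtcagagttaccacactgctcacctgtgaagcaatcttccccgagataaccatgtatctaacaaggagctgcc

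The longer run, GGGAATTTCCCTGG, is 14 bases long and begins at position -71 in Cxcl1 and -97 in Cxcl2, counting the base just before the annotated start as -1. Of 32851 RefSeq windows of the 250 bases before a start, 2, or 0.00609%, hold it on either strand, and these are the windows of Cxcl1 and Cxcl2. The shorter run, GCATAAAAGG, lies nearer the start, at -36 in Cxcl1 and -59 in Cxcl2, and occurs in 0.0578% of the windows. The letters GGGAATTTC, which overlap the longer run, were searched for on both strands and occur in 0.234% of all windows. They are present in the windows of 3 of the 6 genes, Cxcl1, Cxcl2 and S100a9, where they begin at -135 in the last. The matches in Cxcl1 and Cxcl2 are part of the shared run and were fixed by it, so nothing is read from the count of 3. Among the genes of the pathway lists described further on, the windows of Cxcl3, S100g and Nfkbia hold GGGAATTTC too. The windows of the 6 genes held no match on either strand to TGANTCA, letters of AP-1, which occur in 6.75% of all windows. TTGCNNNAA, letters of C/EBP that occur in 8.29%, matched in Cxcl1 alone, and TATAAA, which occurs in 12.4%, in S100a8 alone, at -30. S100a8 and S100a9 share a run of 11 bases, TGGAAGGGAAG, which occurs in 0.0883% of the windows. A match is a description of these letters and no measurement of binding. Only exact letters were searched for, so a window without a match may still hold a binding site.

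Cxcr2, the receptor, had another pattern. It stood at 66.8, 43.7, 76.4, 56.5 and 81.8 normalized counts in PBS mice 1 to 5, and at 39.0, 49.0, 59.4, 78.4, 40.2 and 55.1 in DT mice 1 to 6. PBS 3 and PBS 5 were again the highest PBS mice, but PBS 1 was close to them and the lowest DT mouse was DT 1 and not DT 3. The mean was 65.0 ± 15.4 (SD, n = 5) in PBS mice and 53.5 ± 14.6 (SD, n = 6) in DT mice, a difference of -0.28 (SE 0.20) on the log2 scale. The highest mouse exceeded the lowest by 2.10-fold, the narrowest range of the 6 genes. Per kilobase of transcript, Cxcr2 exceeded Csf3r, the other receptor typical of neutrophils, in 11 of 11 mice, at 21.4 ± 5.04 against 1.44 ± 0.876 normalized counts per kilobase in PBS mice and 17.6 ± 4.79 against 1.03 ± 0.636 in DT mice. Cxcr1, the related receptor encoded beside Cxcr2, was listed without a value. Which cells carried the Cxcr2 transcripts was not tested.

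Lcn2 resembled the calprotectin genes in the PBS mice and had a narrower range in the DT mice. It stood at 38.5, 69.0, 142, 73.8 and 154 normalized counts in PBS mice 1 to 5, and at 124, 76.0, 34.2, 78.4, 101 and 96.3 in DT mice 1 to 6. PBS 3 and PBS 5 were the 2 highest of all mice, and DT 3 and PBS 1 the 2 lowest. The mean was 95.5 ± 50.1 (SD, n = 5) in PBS mice and 85.0 ± 30.3 (SD, n = 6) in DT mice, and DT minus PBS was -0.09 (SE 0.34) on the log2 scale.

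None of the 6 genes passed an adjusted p of 0.1 between the groups in limma's test over all genes (0 of 6), where 0.558% of all genes tested passed, 107 of 19170, and nothing is read from that count because the genes were selected on the same contrast. The median of the 6 differences was 0.43 on the log2 scale, beside -0.01 over all genes tested. 4 differences were positive and 2 negative, and each was smaller than 1.5 times its SE. The groups overlapped for all 6 genes, while 2.11% of the 13477 well-measured genes had groups that did not overlap.

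The differences depended on 2 control mice. Without PBS 3 and PBS 5, DT minus PBS was 1.40 (SE 0.37) for S100a8, 1.29 (SE 0.36) for S100a9, 1.23 (SE 0.31) for Cxcl1 and 1.13 (SE 0.40) for Cxcl2, and it was 0.44 (SE 0.31) for Lcn2 and -0.08 (SE 0.22) for Cxcr2. In that fit 3 of the 6 genes, S100a8, S100a9 and Cxcl1, passed the threshold as higher after DT, beside 4.81% of all genes. These 2 mice were left out with their values known and they hold the highest PBS levels of these very genes, so the larger differences follow from the choice and give no support to a change.

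**Figure D2:**
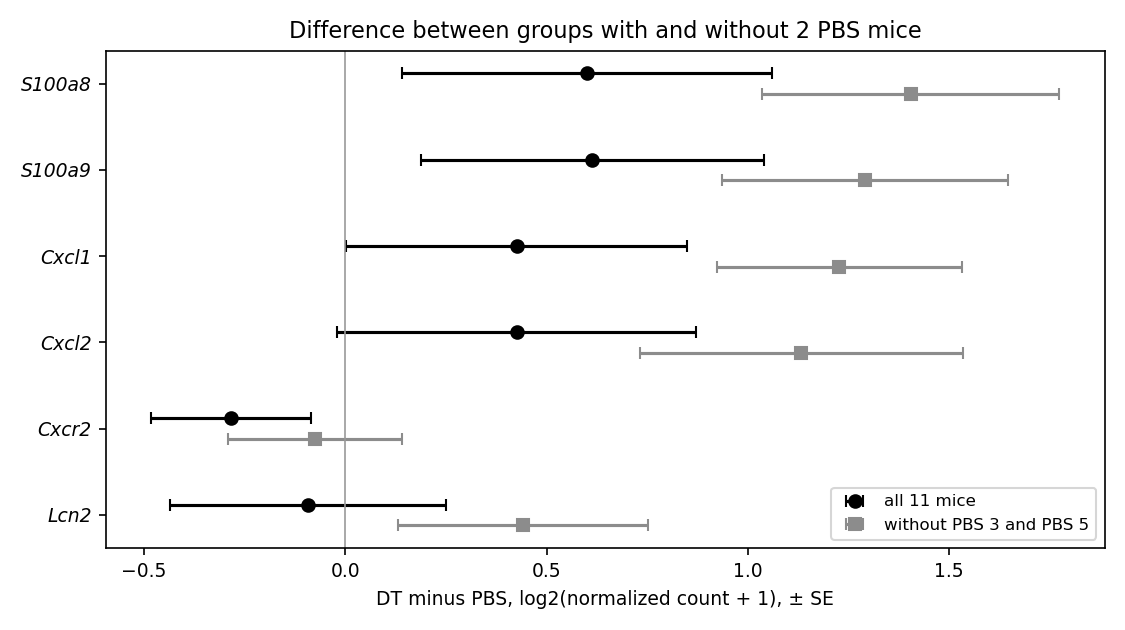
Difference of DT minus PBS (x axis, log2 of the normalized count + 1, with bars of 1 SE) for the 6 genes, from all 11 mice (black circles) and without PBS 3 and PBS 5 (grey squares). S100a8 moved from 0.60 to 1.40 and Cxcl1 from 0.43 to 1.23, while Cxcr2 stayed below 0 in both.

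The spread between mice of 1 group was the main feature of these genes, and it is one of the values on which they were selected. In PBS mice the SD of the log2 level was 1.13 for S100a8, 1.00 for S100a9, 1.13 for Cxcl1, 1.00 for Cxcl2, 0.81 for Lcn2 and 0.36 for Cxcr2, where the median well-measured gene had 0.17. In DT mice the SDs were 0.88, 0.87, 0.68, 0.87, 0.63 and 0.37 in the same order, beside a median of 0.12. The SD that counting reads alone would give was between 0.05 for S100a9 and 0.27 for Cxcl2. It was below the spread in both groups for every gene, and nearest to it for Cxcr2, at 0.19 against 0.36 and 0.37. It came nearer still for Cxcl2 without PBS 3 and PBS 5 and for Cxcr2 without PBS 2, with the values below. Over all 11 mice, between 86.3% of genes for Cxcr2 and 99.4% for S100a8 had a smaller SD. Without PBS 3 and PBS 5 the SD in PBS mice was 0.29 for S100a8, 0.14 for S100a9, 0.32 for Cxcl1, 0.37 for Cxcl2 and 0.51 for Lcn2, and leaving out 1 PBS mouse brought it to 0.60 for S100a9 (PBS 5) and to 0.23 for Cxcr2 (PBS 2). Without DT 3 the SD in DT mice was 0.53 for S100a8, 0.41 for S100a9 and 0.29 for Lcn2.

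**Figure D3:**
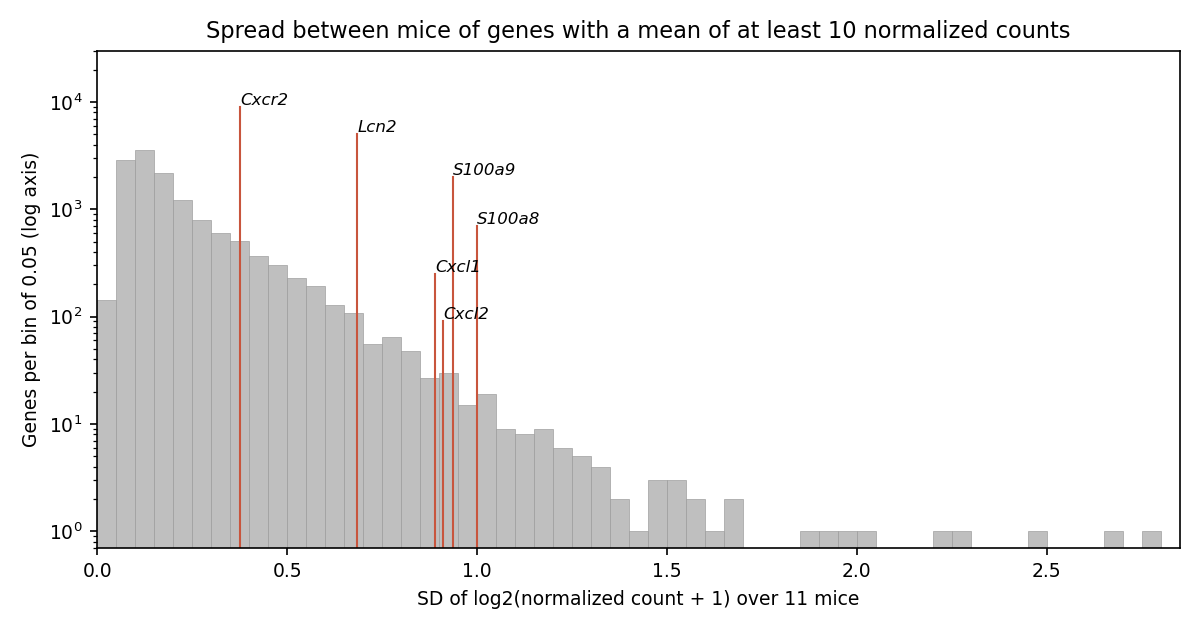
Number of genes (y axis, log scale) by the SD of log2(normalized count + 1) over 11 mice (x axis, bins of 0.05), for the 13477 well-measured genes, with red lines at the 6 genes. S100a8 had a larger SD than 99.4% of these genes and Cxcr2 a larger one than 86.3%.

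PBS 3 and PBS 5 were the 2 highest PBS mice for 6 of 6 genes, while this held for 23.2% of all well-measured genes. DT 3 was the lowest DT mouse for 5 of 6 genes, against 18.4% of those genes. The 6 genes were selected on their level in each mouse, so nothing is read from these counts. The same mice also stood out for the LC markers, a list that includes MHC class II genes and Epcam, which are not specific to LCs. These PBS mice were the highest of their group for 7 of 7 LC markers and for 6 of the 8 well-measured macrophage and monocyte markers, and DT 3 was the lowest DT mouse for 6 and 5 of them. The summed LC markers stood at 5524 in PBS 3 and 4497 in PBS 5 against 2347 to 2964 in the other PBS mice, and Cd207, which encodes langerin, stood at 32.2 and 43.0 against 10.0 to 18.5. PBS 3 and PBS 5 were the highest PBS mice for 2 of 11 keratinocyte markers and for 3 of the 7 genes of wounded or activated epithelium. Among the other S100 genes, these 2 mice were the highest for 8 of the 10 well-measured ones, and DT 3 was the lowest DT mouse for 7. The part of any cell type in the levels of the 6 genes was not tested.

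**Figure D4:**
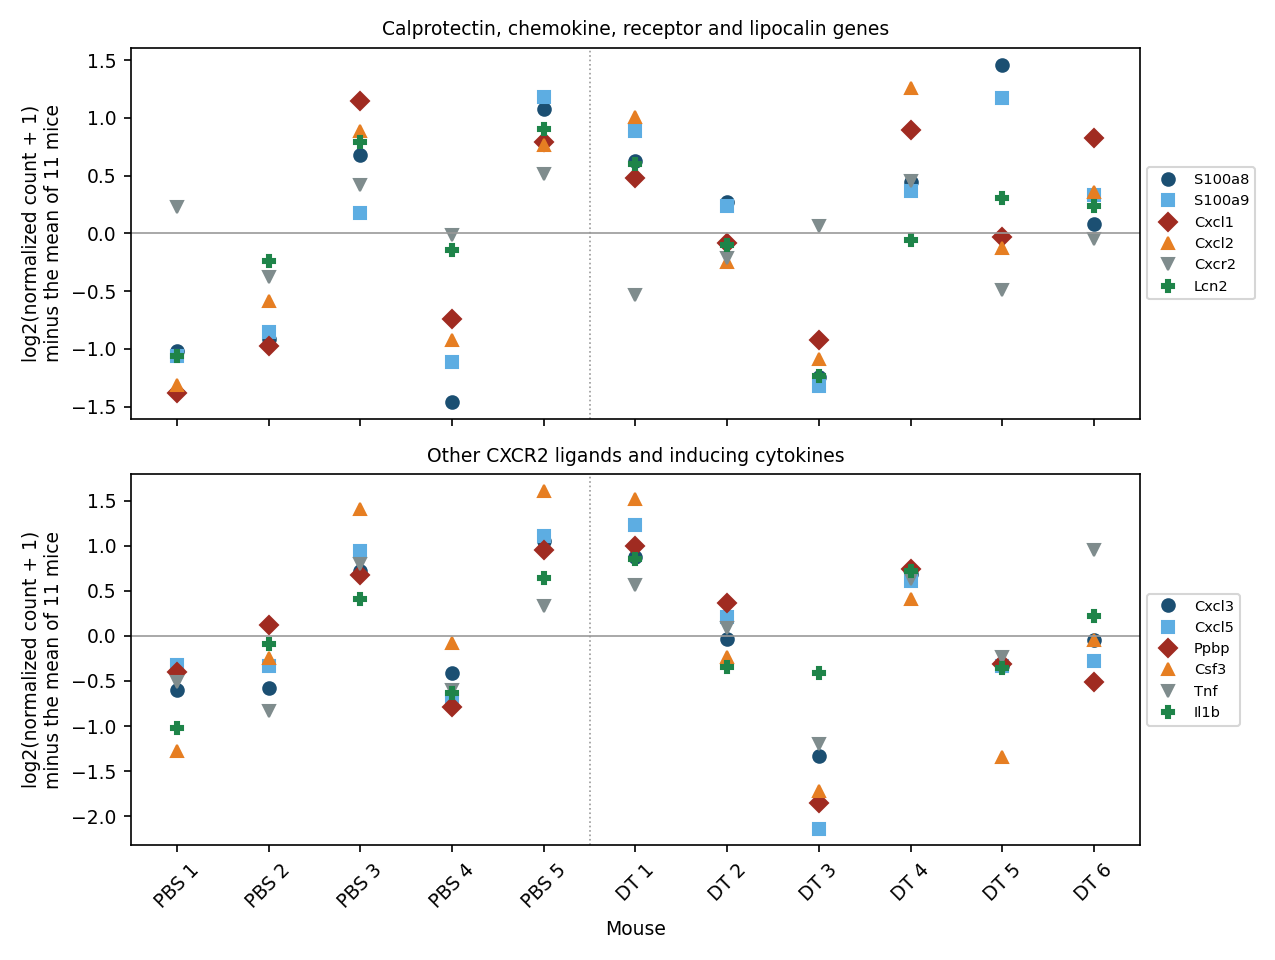
Level of each gene in each mouse (x axis) as log2(normalized count + 1) minus the mean of that gene over 11 mice (y axis), for the 6 genes (top) and for Cxcl3, Cxcl5, Ppbp, Csf3, Tnf and Il1b (bottom), with a dotted line between PBS and DT mice. PBS 3, PBS 5, DT 1 and DT 4 lay high for most genes, while DT 5 was highest for S100a8 but not for the chemokines.

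The subunits of calprotectin kept to each other more closely than to the chemokines. The ratio of S100a9 to S100a8 normalized counts was 1.39, 1.50, 1.01, 1.82 and 1.54 in PBS mice 1 to 5, and 1.72, 1.39, 1.36, 1.36, 1.17 and 1.71 in DT mice 1 to 6. Its mean was 1.45 ± 0.295 (SD, n = 5) in PBS mice and 1.45 ± 0.217 (SD, n = 6) in DT mice, and it was above 1 in 11 of 11 mice. The ratio thus spanned 1.81-fold where S100a8 itself spanned 7.61-fold. The ratio of Cxcl2 to Cxcl1 was 0.289 ± 0.0527 in PBS mice and 0.297 ± 0.0823 in DT mice, between 0.208 in DT 6 and 0.420 in DT 1, and spanned 2.02-fold.

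**Figure D5:**
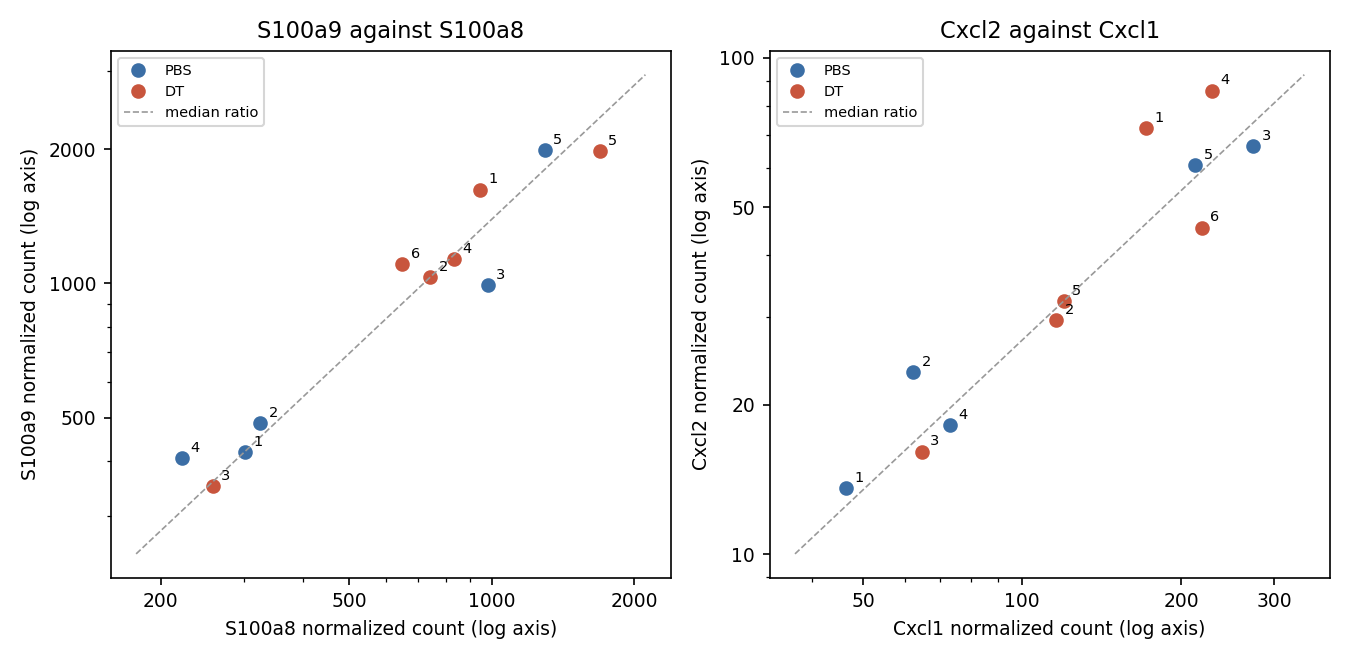
S100a9 against S100a8 (left) and Cxcl2 against Cxcl1 (right), as normalized counts on log axes, in PBS mice (blue) and DT mice (red) with the mouse number beside each point and a dashed line at the median ratio. The points lay along the line over the whole range, with PBS 3 the farthest below it on the left and DT 6 on the right.

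Calprotectin and chemokine levels parted in some DT mice. DT 5 had the highest S100a8 of all mice, at 1691, and a middle level of Cxcl1, at 120. DT 6 had a Cxcl1 level of 219, close to that of PBS 5, with S100a8 at 648. DT 4 had the highest Cxcl2, at 85.9, with S100a8 at 835 and the second highest Cxcr2.

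Compared per kilobase of transcript, the order of the levels in PBS mice was S100a9 at 1656 ± 1309 normalized counts per kilobase, S100a8 at 1287 ± 995, Cxcl1 at 140 ± 108, Lcn2 at 104 ± 54.7, Cxcl2 at 32.9 ± 22.6 and Cxcr2 at 21.4 ± 5.04 (SD, n = 5). In DT mice the order was the same, with 2322 ± 1075, 1756 ± 973, 161 ± 67.6, 92.9 ± 33.1, 42.3 ± 24.3 and 17.6 ± 4.79 (SD, n = 6). Such levels assume reads along the whole transcript. The study names both a QuantSeq guide for its reads and a KAPA mRNA library kit, so this was not settled. By normalized counts Cxcr2 lay above Cxcl2, with means of 65.0 against 36.5 in PBS mice and 53.5 against 46.9 in DT mice. S100a9 and S100a8 did not differ beyond their spread between mice, although within a mouse S100a9 was the higher per kilobase in 10 of 11. The lowest S100a8 value, 457, was above the highest Cxcl1 value, 287. Cxcl1 and Lcn2 overlapped, as did Cxcl2 and Cxcr2. Lcn2 and Cxcl2 had means farther apart than the SD of either, though the lowest Lcn2 value, 37.4, was below the highest Cxcl2 value, 77.4.

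The genes with the most similar profiles were sought by the root mean square difference between the centred log2 levels over 11 mice, with no test. S100a9 was the nearest gene to S100a8, at 0.24, and Cxcl2 the nearest to Cxcl1, at 0.29, each pair being mutual. After its partner, each calprotectin gene was nearest to Uox, which encodes urate oxidase, at 0.34 from S100a8 and 0.33 from S100a9, and to Cldn7, which encodes a claudin of tight junctions, at 0.44 and 0.37. Cxcl1 was next nearest to Tnf, at 0.35, and to the protease gene Klk6, at 0.41, and Cxcl2 to Vnn1, which encodes a pantetheinase, at 0.36 and to Il1b at 0.37. Lcn2 was nearest to Sprr2d, a gene of the cornified envelope, at 0.21, then to the cystine transporter gene Slc7a11 at 0.29 and to Cldn7 at 0.30. Cxcr2 was nearest to Uba7 at 0.19, E2f1 at 0.19 and Irf1 at 0.20, but its own profile varied by 0.36 on the same scale, so these distances say less than those of S100a8, which varied by 0.95.

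The other ligands of CXCR2 were measured for 3 of the 7 genes listed beside it, and Cxcl15, Pf4, Cxcr1 and Ackr1 had no value. Ppbp, which encodes the CXCL7 precursor, and Cxcl5 exceeded Cxcl1 per kilobase in 11 of 11 mice, at 1166 ± 555 and 435 ± 251 normalized counts per kilobase against 140 ± 108 in PBS mice. Cxcl3 was close to Cxcl1, at 107 ± 60.8. Of the measured CXCR2 ligands, Ppbp and Cxcl5 thus had the highest levels in these libraries.

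Ppbp stood at 802, 1155, 1693, 613 and 2048 normalized counts in PBS mice 1 to 5, and at 2122, 1366, 293, 1778, 852 and 742 in DT mice 1 to 6. Cxcl5 stood at 437, 431, 1046, 335 and 1179 in the PBS mice, and at 1283, 631, 123, 834, 432 and 449 in the DT mice. DT 1 was the highest of all mice and DT 3 the lowest for both genes. PBS 3 and PBS 5 were the highest PBS mice for all 3 measured ligands, beside 23.2% of all well-measured genes. DT minus PBS was -0.21 (SE 0.42) for Ppbp, -0.26 (SE 0.47) for Cxcl5 and -0.07 (SE 0.37) for Cxcl3, with adjusted p-values of 0.895, 0.879 and 0.967 in limma's test over all genes. Without PBS 3 and PBS 5 all 3 signs turned, to 0.26 for Ppbp, 0.34 for Cxcl5 and 0.50 for Cxcl3, so the direction of these ligands is not settled. The median difference of the 3 on the log2 scale was -0.21 with these mice and 0.34 without them.

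Of the 104 genes in the 9 pathway lists around these 6 genes, 91 had values, 2 passed the threshold as higher after DT and 0 as lower in limma's test, beside 0.313% of all genes passing as higher, and 16 of the 91, or 17.6%, had an unadjusted p under 0.05, beside 11.5% of all genes tested. Both were in the list of 12 genes that act on NF-kB signalling or on the stability of chemokine mRNA. The pathway and marker lists were chosen with earlier results of these data known, so nothing is read from their shares of passing genes. Zfp36 encodes tristetraprolin, which binds AU-rich elements and speeds the decay of cytokine and chemokine mRNAs, and Dusp1 encodes a phosphatase that switches off the MAP kinases p38 and JNK.

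Zfp36 stood at 3811, 2863, 3424, 5573 and 2240 normalized counts in PBS mice 1 to 5, and at 6378, 6210, 7604, 7269, 7902 and 9133 in DT mice 1 to 6. Dusp1 stood at 5267, 3563, 4691, 7255 and 3972 in the PBS mice, and at 9513, 8057, 9319, 8908, 11340 and 11872 in the DT mice. Every DT mouse was above every PBS mouse for both genes, where 2.11% of the 13477 well-measured genes had groups that did not overlap in either direction. The list that holds them was chosen with earlier results known, so this and the adjusted p-values are a description. Zfp36 rose by 1.10 (SE 0.17) on the log2 scale with an adjusted p of 0.0093, and Dusp1 by 1.02 (SE 0.15) with an adjusted p of 0.0083, in limma's test over all genes. The differences were 0.90 and 0.92 without PBS 3 and PBS 5. The median difference of the list was 0.05 with all mice and 0.11 without PBS 3 and PBS 5. Zfp36l1, a relative of Zfp36, stood at 5787 ± 137 (SD, n = 5) in PBS mice and 6104 ± 545 (SD, n = 6) in DT mice, and Nfkbia, which encodes the inhibitor IkB alpha, had a difference of 0.35 (SE 0.09, adjusted p = 0.164 in limma's test), which was 0.43 without the 2 PBS mice.

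The inducers did not pass the test. Of 28 genes of the IL-17, IL-1, IL-36 and TNF inputs and their effectors, 26 had values, 0 passed, 4 of them, or 15.4%, had an unadjusted p under 0.05 in limma's test, beside the 11.5% of all genes, and the median difference was 0.09 with all mice and 0.17 without PBS 3 and PBS 5. Il6 and Il22 had no value and Il17a lay between 0 and 5.73 normalized counts. Il1b had 21.6 ± 10.3 (SD, n = 5) in PBS mice and 25.3 ± 10.7 (SD, n = 6) in DT mice, and Tnf 19.5 ± 10.5 and 24.4 ± 11.3. The 2 with the highest levels were Il36g, at 3321 ± 414 and 3673 ± 264, and Cebpb, which encodes a factor that acts on the promoters of acute-phase genes, at 2757 ± 475 and 3200 ± 284. PBS 3 and PBS 5 were the highest PBS mice for 16 of the 23 well-measured inducers, beside 23.2% of all well-measured genes. The list was chosen with earlier results known, so nothing is read from that count.

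Among 16 other S100 genes, 13 had values, 10 differences were positive and 3 negative, 0 passed and the median was 0.11 with all mice and 0.21 without PBS 3 and PBS 5. S100a14 and S100a16, the most abundant, stood at 15778 ± 3100 and 13490 ± 2151 (SD, n = 5) in PBS mice and at 16401 ± 1203 and 13486 ± 1014 (SD, n = 6) in DT mice. S100a7a, whose gene lies next to S100a8 on chromosome 3, stood at 2169 ± 366 and 2564 ± 192, with a difference of 0.25 (SE 0.09, adjusted p = 0.263 in limma's test), or 0.37 without the 2 PBS mice. S100a8 and S100a9 thus lay within a family whose other abundant genes varied far less between mice, since S100a14 spanned 13167 to 21085 over all PBS mice where S100a9 spanned 405 to 1995.

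The genes of neutrophil supply, entry and sensing gave no call. Of the 7 growth and retention genes, 0 passed with a median of -0.33. Csf3, which encodes the growth factor G-CSF, stood at 11.3, 24.3, 78.5, 27.3 and 90.2 normalized counts in PBS mice 1 to 5, and at 84.8, 24.5, 8.06, 38.6, 10.8 and 28.0 in DT mice 1 to 6, so that PBS 3, PBS 5 and DT 1 were the high mice. Csf2ra, a subunit of the GM-CSF receptor, had 107 ± 33.1 and 97.5 ± 17.4. Of the 9 genes for other attractants, 7 had values and the median was -0.24, with Lta4h, of leukotriene B4 synthesis, at 1178 ± 94.4 and 1218 ± 24.3 and Ltb4r1, its receptor, at 622 ± 31.6 and 614 ± 54.8. Of the 10 adhesion genes, 8 had values and the median was -0.35, while Sele and Selp, the selectins of activated vessels, had none. Without PBS 3 and PBS 5 the medians of these 3 lists were -0.10, -0.03 and -0.06, so most of each shift rested on those mice. Itgam, the integrin chain CD11b, had 122 ± 17.0 and 123 ± 26.7, and Icam1 111 ± 35.0 and 95.4 ± 17.9.

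No receptor of calprotectin and no partner of lipocalin 2 passed the test. All 7 calprotectin receptor genes had values, 0 passed and the median difference was -0.04, with Bsg, which encodes basigin, at 4652 ± 591 (SD, n = 5) in PBS mice and 4808 ± 154 (SD, n = 6) in DT mice and the adaptor gene Myd88 at 823 ± 78.8 and 898 ± 32.4. All 8 genes of lipocalin 2 uptake and iron handling had values, 0 passed and the median was -0.03. The ferritin genes Fth1 and Ftl1 led this list, at 28180 ± 3142 and 31124 ± 1650 for Fth1 and 4610 ± 770 and 4475 ± 272 for Ftl1. Without PBS 3 and PBS 5 the medians were 0.17 for the calprotectin receptors, where the sign thus turned, and -0.01 for the partners of lipocalin 2. These counts rest on a test that missed its threshold, which does not show that the levels were equal.

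Of the 87 marker genes of 12 cell types, 72 had values and 0 passed in limma's test in either direction, with 6, or 8.33%, at an unadjusted p under 0.05, beside the 11.5% of all genes. The median difference was -0.34 for the 7 LC markers, -0.32 for the 10 macrophage and monocyte markers, -0.39 for the 4 measured neutrophil markers and 0.09 for the 11 keratinocyte markers. Leaving out PBS 3 and PBS 5 made these medians 0.02, -0.01, -0.12 and 0.01, so the negative medians of the LC and of the macrophage and monocyte markers rested on those mice. Ltf stood at 1771, 866, 1685, 1825 and 2144 normalized counts in PBS mice 1 to 5, and at 1443, 1425, 278, 1535, 2008 and 1563 in DT mice 1 to 6. Chil3, which encodes a chitinase-like protein of myeloid cells, stood at 574 in PBS 3 and 98.6 in PBS 5 and between 0 and 25.3 in the other mice. Both mice with high Chil3 were thus the PBS mice with high calprotectin, while Csf3r and Ngp stayed below 10 in every mouse, and the part of any myeloid cells in these levels was not tested.

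The levels of the cell type markers are given next, and the part of any cell type in the libraries was not tested. Krt76, a keratin of the gingiva and palate, stood at 697905 ± 87874 (SD, n = 5) normalized counts in PBS mice and 752623 ± 75484 (SD, n = 6) in DT mice. The keratins of wounded or activated epithelium, which often accompany calprotectin in skin, were abundant in both groups, with Krt6a at 247320 ± 18897 and 257138 ± 24464 and Krt6b at 201689 ± 14236 and 196634 ± 17412, and the 7 genes of that list had a median difference of -0.05, or 0.05 without PBS 3 and PBS 5. Of the LC markers, Cd74, the invariant chain of MHC class II, stood at 1361 ± 593 and 919 ± 222, and Epcam at 692 ± 115 and 639 ± 70.3. Of the macrophage and monocyte markers, Cd68 stood at 154 ± 34.5 and 157 ± 19.4 and Csf1r at 110 ± 30.0 and 79.6 ± 20.1.

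The markers of T and NK cells, vessels, blood and muscle had few reads. The summed T and NK cell markers lay between 10.9 and 57.3 normalized counts in PBS mice and between 13.1 and 36.5 in DT mice, with Cd3g at 9.50 ± 5.25 (SD, n = 5) and 6.84 ± 2.42 (SD, n = 6) and Cd3e at 7.42 ± 4.39 and 7.85 ± 3.31. Endothelial markers summed to 69.2 to 108 and 57.4 to 130, with Pecam1 at 70.3 ± 15.2 and 64.9 ± 25.8 and Vwf at 18.6 ± 6.23 and 17.5 ± 4.42, red cell markers to 92.8 to 268 and 76.9 to 163, with Hbb-bs at 57.2 ± 31.6 and 55.3 ± 15.1 and Alas2 at 34.0 ± 8.84 and 25.2 ± 9.74, and muscle markers to 8.20 to 46.2 and 8.75 to 29.0. Fibroblast markers summed to 1252 to 1450 and 1109 to 1594, nearly all of it Dcn, at 1174 ± 85.7 and 1259 ± 169, with Col1a1 at 69.5 ± 27.1 and 45.3 ± 6.58. Of the mast cell markers, Kit, which other cells also express, stood at 308 ± 47.6 and 247 ± 45.2 and Mcpt4 at 1.59 ± 2.02 and 0.528 ± 0.932. The median differences of these lists were -0.53 for T and NK cells, -0.12 for endothelium, -0.45 for red cells, -0.29 for muscle, -0.45 for fibroblasts and -0.32 for mast cells. With PBS 3 and PBS 5 left out they were -0.06, -0.17, -0.20, 0.21, -0.74 and -0.41 in the same order, so that the muscle markers turned sign, and genes with so few reads carry a large counting error.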

How the data were processed

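RNA from the gingival epithelium of 11 Langerin-DTR mice, 5 given PBS and 6 given DT, was sequenced. The study names a KAPA kit with mRNA capture beads and, for its reads, a QuantSeq guide, so the kind of library was not settled. The values that the authors deposited are counts of reads per gene divided by the DESeq2 size factor of the mouse. Genes with a summed count under 10 carry no value. According to the submitters' processing notes, cutadapt 2.10, TopHat2 2.1.1, HTSeq 2.01, DESeq2 1.36.0 and the build GRCm39 were used, and the methods of the study name other versions and GRCm38. Of 55414 genes listed, 19170 had values and 36244 had none. Every value was a multiple of what 1 read is worth in that mouse, within 0.1 of a whole number, which gave the reads per mouse. No column of a mouse was left out.

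The groups were compared with limma 3.58.1 (R 4.3.3) on log2(normalized count + 1) with an intensity trend, over all 19170 genes and 11 mice, without covariates and with Benjamini-Hochberg adjustment at a threshold of 0.1. The fit was tested on simulated data. Levels per kilobase used the longest principal transcript in GENCODE release M21, and promoter sequences came from RefSeq, both of the build GRCm38, from which no coordinate was joined to the files. Nothing in the labels ties a mouse to a litter or cage, so p-values measure the spread between these mice.

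The genes, the 9 pathway lists, the 12 marker lists and the tests were chosen with earlier results of these data known. The rule for named genes took the 6 genes, every neutrophil marker with a value, every list gene past the threshold (at most 5 per list), the 2 genes of highest mean in each list and the 3 nearest profiles of each of the 6. Cxcl3, Il17a, Nfkbia, S100a7a, Cd207 and the genes named as without values fall outside it and were added with their values seen. One gene that the rule names, and the summary of its list of B and plasma cell markers, are not reported here. Alternatives were other pseudocounts, scalings and filters, array weights, a replicate block and leaving out mice. A mean under 10 normalized counts carries a large counting error.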

Additional observations from a re-analysis of the deposited data

Results flagged for a closer look

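Values of single mice far from the others of their group, by Dixon's test of the gap to the nearest mouse over the range, were found 10 times in 128 groups of values. Chance gives such a gap in about 1 of 20 groups. None of the 6 genes and neither ratio was among them. In DT 3, Ltf stood at 278 normalized counts where the other DT mice had 1425 to 2008, Cldn7 at 11.1 where they had 24.5 to 32.1, and Krt6b at 230521 where they had 183136 to 198042. Cldn7 was named for a profile near that of S100a8, S100a9 and Lcn2, so its low value in DT 3 follows from that choice. In PBS 3, Chil3 stood at 574 against 0 to 98.6. In DT 5, Uox, also named for its likeness to S100a8 and S100a9, stood at 138 against 15.1 to 57.8. In DT 4, Myd88 was lower, at 834 against 900 to 926, and E2f1 higher, at 81.6 against 42.4 to 49.0, as was the muscle gene Tnnt3, at 9.66 against 0.845 to 2.62. The B cell gene Cd79a stood at 26.4 in PBS 4 against 0.972 to 7.92, and the muscle gene Acta1 at 26.2 in PBS 5 against 4.55 to 8.05.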

How the results depend on the processing

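Leaving out PBS 3 and PBS 5 together moved the results most. The genes past the threshold went from 107 to 1967 (922 higher and 1045 lower after DT), the 6 genes past it from 0 to 3, the pathway list genes from 2 to 17 and the marker list genes from 0 to 3. With array weights the calls were 189 over all genes and 5 in the pathway lists. Leaving out 1 mouse gave between 27 and 259 calls over all genes, namely 29 without PBS 1, 40 without PBS 2, 170 without PBS 4, 259 without PBS 5, 61 without DT 1, 52 without DT 3, 50 without DT 4, 27 without DT 5 and 30 without DT 6, while the counts without PBS 3 or DT 2 stayed within 1.5 times the main one. It gave 2 to 4 calls in the pathway lists, 4 each without PBS 3, PBS 4 or PBS 5, and 0 among the 6 genes and the markers. Zfp36 and Dusp1 passed in 19 of 19 alternatives, each with adjusted p-values up to 0.060 in limma's test. The alternatives reuse the same mice, and the list of these genes was chosen with earlier results known, so they add no separate support.

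No alternative moved a difference of the 6 genes by over 1 SD pooled over both groups, though without PBS 3 and PBS 5 that of Cxcl1 went from 0.43 to 1.23, a move larger than the SD of 0.68 among DT mice alone. Leaving out 1 mouse gave 0.32 to 0.95 for S100a8, 0.42 to 0.99 for S100a9, 0.14 to 0.77 for Cxcl1, 0.15 to 0.71 for Cxcl2 and -0.42 to -0.19 for Cxcr2. For Lcn2 it gave -0.37 to 0.15, so that its sign is not settled.

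The deviations of same-numbered PBS and DT mice from their group means had correlations between -0.233 and 0.324. The highest was for number 5, where no other DT mouse gave a higher value. The title of PBS 5 numbers it 6 and its column numbers it 5, and it was taken here as 5. Whether the numbers pair mice is therefore not settled. With a replicate block the calls were 35 over all genes, 0 among the 6 genes, 2 in the pathway lists and 0 among the markers. Tests of counts with edgeR and DESeq2 were planned on recovered reads and were not run, because the deposited values are normalized. Depth limits the precision of Cxcl2 most, since counting alone gives an SD of 0.27 on the log2 scale.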
